A study of Mus musculus with 52 samples.

Results

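Whole kidneys of female NZB/W-F1 mice, the hybrid offspring of New Zealand Black mothers and New Zealand White fathers, were compared at 6 months and at 3 months of age. All kidney libraries titled with this hybrid and 1 of these ages were taken, 3 at 6 months and 3 at 3 months, which makes 6 of the 52 libraries of a study that also sampled spleen and brain. The 6-month animals were labelled as having symptomatic nephritic lupus and had reached this group through persistent protein in the urine. The 3-month animals were labelled as being at the stage before autoimmunity. C57BL/6 females of 6 and 3 months, labelled healthy, are set beside them (3 kidneys at each age). All 18 kidney libraries, including 1-month kidneys of both strains, share in the estimate of the spread. IgG shares of the 1-month NZB/W-F1 kidneys are also given. Every animal was untreated as far as the labels say and was perfused with buffered saline before the organs were taken. RNA was sequenced from bulk tissue, so more cells of a type and more RNA per cell cannot be told apart in any value below. The 6-month libraries of both strains carry an earlier block of GEO sample numbers than the 3-month libraries of both strains. Age, as 6 against 3 months, and submission block thus cannot be told apart within a strain. The 1-month libraries lie in the earlier block for NZB/W-F1 and in the later block for C57BL/6.

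NZB/W-F1 mice are a spontaneous model of lupus. Females make antibodies against DNA and chromatin, and immune complexes that lodge in the glomeruli engage Fc receptors and complement and draw in leukocytes, which leads to protein loss and failing tubules. Class-switched IgG of the IgG2 and IgG3 subclasses is prominent in these deposits. Plasma cells that make such antibodies are known to settle in the inflamed kidney as well as in spleen and bone marrow.

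The 6 libraries held 7817770 to 13784897 reads in genes. Values are CPM (reads per 1000000 on the library sizes as the authors scaled them), and 3 reads in a library correspond to 0.168 to 0.3 CPM. Kidney markers were present in all 6 libraries. Slc34a1, the phosphate transporter of the proximal tubule, had 1221, 2238 and 1110 CPM in 6-month kidneys, against 2212, 3392 and 4132 CPM in 3-month kidneys. Umod, the uromodulin gene of the thick ascending limb, lay between 1215 and 2078 CPM in 6-month kidneys, against 1204 to 1796 CPM in 3-month kidneys.

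RNA of neighbouring tissues differed between the libraries. Markers of adrenal cortex (6 genes) summed to 3.65, 4.13 and 4.41 CPM in 6-month kidneys, against 5522, 4.30 and 4.41 CPM in 3-month kidneys. In 3-month replicate 1 alone, the steroidogenic genes Star and Hsd3b1 each had about the same level, 1302 CPM, and the corticotropin receptor Mc2r had 29.5 CPM. Adipocyte markers (9 genes) summed to 140.4, 209 and 353 CPM in 6-month kidneys, against 1023, 894 and 129 CPM in 3-month kidneys. Red cell markers (6 genes) overlapped between the ages, at 178 to 279.8 CPM in 6-month kidneys and 69.8 to 298 CPM in 3-month kidneys. Urothelial markers (8 genes) did not overlap: they summed to 181, 242 and 196 CPM in 6-month kidneys, against 116, 119 and 59.8 CPM in 3-month kidneys. No skeletal muscle marker on the list was among the genes analysed. The part of these differences in the results below was not tested, and counts are also given without the library that carried adrenal RNA.

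**Figure D1:**
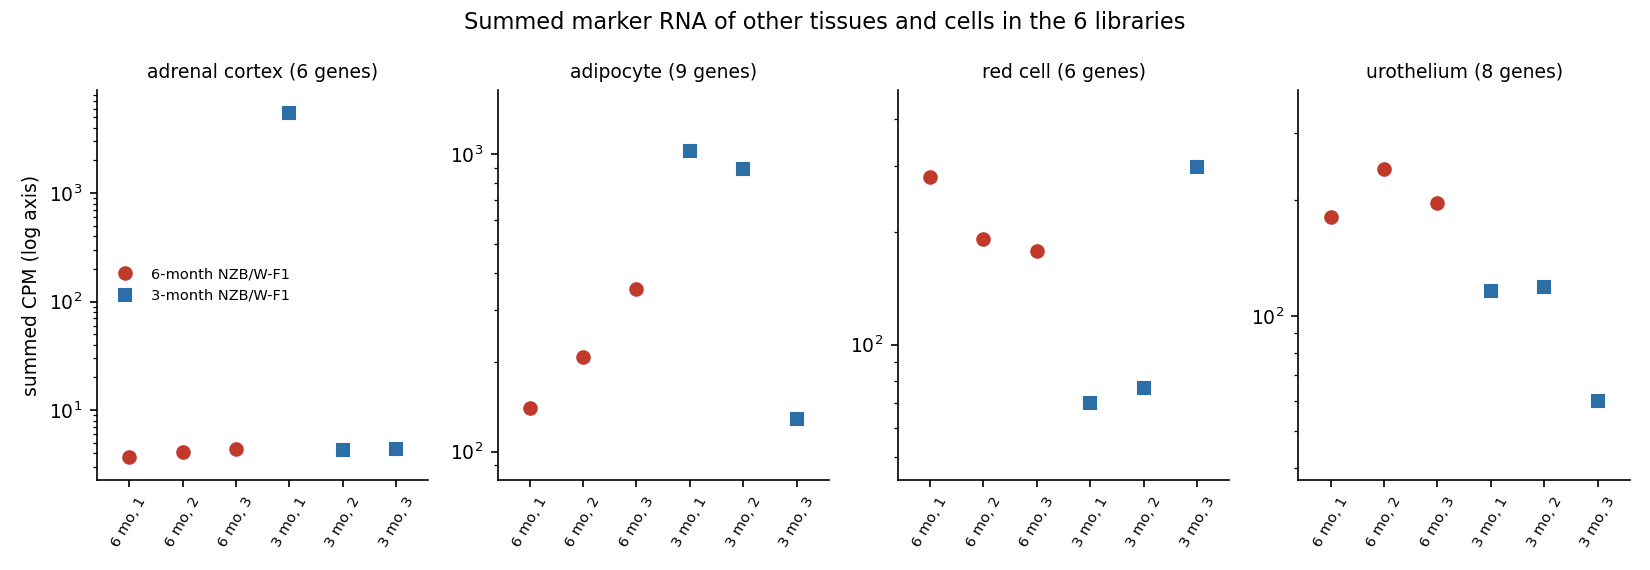
Summed CPM of marker genes (y axes, log scale) of adrenal cortex, adipocytes, red cells and urothelium in each of the 6 NZB/W-F1 kidney libraries (x axes), with 6-month libraries as circles and 3-month libraries as squares. Adrenal RNA stood at 5522 CPM in 3-month replicate 1 and under 5 CPM in the other 5 libraries, and all urothelial sums at 6 months were above those at 3 months.

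Of 14373 genes tested, 301 differed between 6-month and 3-month NZB/W-F1 kidneys at an adjusted p under 0.05 (2.09% of genes): 248 rose (1.73%) and 53 fell (0.369%). The rises were larger than the falls. Genes that rose had a median log2 fold change of 1.43, and 193 of the 248 rose by more than 1 on the log2 scale. Genes that fell had a median of -0.77, and 17 of the 53 were below -1. The median over all tested genes was 0. Among the 301 were 261 protein coding genes, 24 antibody variable segments and 9 antibody constant genes. In 299 of the 301 the values of the ages did not overlap, while over all genes 13.4% lay wholly higher and 12.7% wholly lower at 6 months.

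Calls depended on single libraries. Leaving out 1 library at a time, 79 of the 301 genes passed in all 6 fits, 76 of those that rose and 3 of those that fell. Dropping 6-month replicate 1, 2 or 3 in turn gave 148, 189 and 290 called genes, and dropping 3-month replicate 1, 2 or 3 gave 167, 108 and 130. Without 3-month replicate 1, which carried the adrenal RNA, 137 of the 248 that rose and 13 of the 53 that fell still passed. In that fit 8 macrophage, 2 B cell, 2 Fc receptor, 1 chemokine ligand, 5 tubule injury and 3 cell cycle members of the lists described below passed. With the spread estimated from these 6 libraries alone, 78 genes passed, 67 of them among the 301. The edgeR quasi-likelihood test on recovered reads called 296 genes, 272 of them among the 301.

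**Figure D2:**
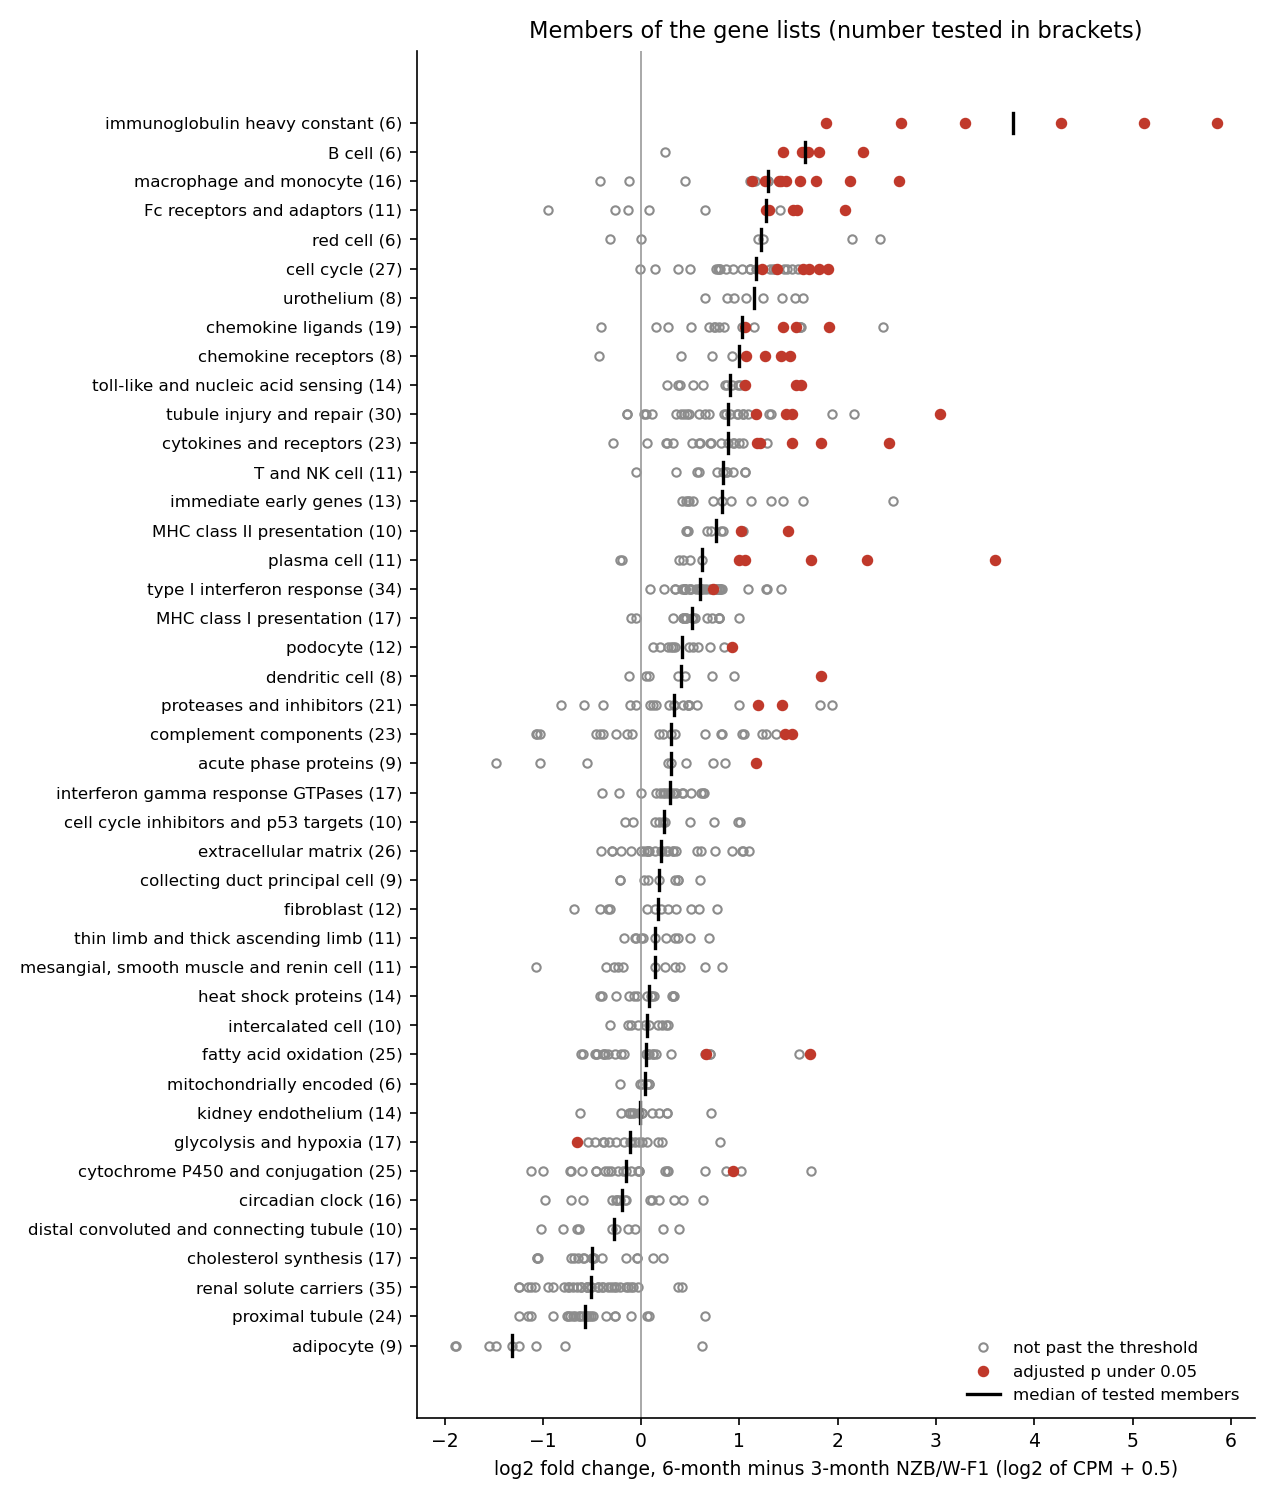
Log2 fold change, 6-month minus 3-month NZB/W-F1 kidney (x axis, log2 of CPM + 0.5), of each tested member of 43 gene lists (rows, number tested in brackets, at least 6), with filled points past an adjusted p of 0.05, open points not past it, and bars for medians. Antibody, B cell and macrophage lists lie farthest to the right, with medians of 3.79, 1.67 and 1.29, and proximal tubule and solute carrier lists lie left of 0.

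Antibody genes were among the largest rises. All 6 tested heavy-chain constant genes and all 3 light-chain constant genes were higher in 6-month kidneys, with median log2 fold changes of 3.79 and 2.38 (1.73% of all genes rose). Iglc1, a lambda light-chain constant gene, lost its call with edgeR, with a pseudocount of 0.1 and when any 1 library except 3-month replicate 1 was dropped (adjusted p = 0.057 to 0.12). Ighg2c (chr12:113285325-113288932, GRCm38) is the IgG2c heavy chain of the C57BL/6 reference genome. It had 52.6, 137 and 115 CPM in 6-month kidneys, against 1.04, 0.112 and 4.11 CPM in 3-month kidneys. Every 6-month kidney was more than 10 times above every 3-month kidney. The log2 fold change was 5.86 (SE 0.65, adjusted p = 2.1e-04). Ighg2b (chr12:113302965-113307933), the IgG2b heavy chain, had 12.8, 67 and 36.8 CPM in 6-month kidneys, against 0.816, 0.0558 and 0.601 CPM in 3-month kidneys, a log2 fold change of 5.12 (SE 0.48, adjusted p = 5.4e-05). Ighg3 (chr12:113356224-113361232), the IgG3 heavy chain, had 34.7, 40.9 and 17.1 CPM in 6-month kidneys, against 2.52, 0.335 and 0.901 CPM in 3-month kidneys, a log2 fold change of 4.28 (SE 0.44, adjusted p = 1.0e-04). Levels below the 3-read floor, as for Ighg2b in 3-month replicate 2, make the exact size of these folds depend on the pseudocount.

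IgM and IgA RNA rose less. Ighm (chr12:113418558-113422730), the heavy chain of unswitched antibody, had 43.8, 106 and 45.0 CPM in 6-month kidneys, against 16.0, 13.4 and 18.4 CPM in 3-month kidneys, a log2 fold change of 1.88 (SE 0.30, adjusted p = 0.0037). With the 6 libraries fitted alone, Ighm lost its call (adjusted p = 0.060). The next pair of genes lies outside the rule for naming and was added after the values were seen. Igha (chr12:113254830-113260236), the heavy chain of mucosal antibody, had 139, 231 and 219 CPM in 6-month kidneys, against 39.8, 30.2 and 22.7 CPM in 3-month kidneys (log2 fold change 2.65, SE 0.44, adjusted p = 0.0052). Ighg1 (chr12:113325240-113330523), the IgG1 heavy chain, had 32.4, 25.1 and 0.826 CPM in 6-month kidneys, against 1.26, 0.0558 and 0.701 CPM in 3-month kidneys. It was thus high in 2 of the 3 nephritic animals, and the third lay inside the 3-month range. Its call (log2 fold change 3.30, SE 0.82, adjusted p = 0.048) was lost when 6-month replicate 1 or 2, or any 1 of the 3-month libraries, was dropped (adjusted p = 0.069 to 0.19). The call was also lost with the 6 libraries fitted alone and with a pseudocount of 0.1.

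The mixture of isotypes shifted with the level. Per kb of exon, IgG genes made up 48.5, 52.0 and 50.4% of heavy-chain constant RNA in 6-month kidneys, against 9.93, 1.39 and 17.8% in 3-month kidneys. The shares averaged 50.3 ± 1.75% at 6 months and 9.69 ± 8.19% at 3 months (SD, n = 3 each), and did not overlap. An exact two-sided permutation test gave p = 0.1, the smallest that 3 against 3 animals allow. The IgM share was lower, 15.9, 19.0 and 11.2% in 6-month kidneys against 32.7, 38 and 43.9% in 3-month kidneys (exact permutation p = 0.1). The IgA share was 35.6, 29.1 and 38.4% in 6-month kidneys, against 57.4, 60.6 and 38.3% in 3-month kidneys, with overlapping values (exact permutation p = 0.2). Ighg2c alone made up 27.2, 34.8 and 40.6% in 6-month kidneys, against 3.02, 0.45 and 13.9% in 3-month kidneys. In 1-month NZB/W-F1 kidneys the IgG share was 3.52, 1.34 and 1.12%. Every IgG gene lay under the 3-read floor in these 1-month libraries, so their shares rest on very few reads. Ighg1, Ighg2b and Ighg2c were also under it in 3-month replicate 2. In C57BL/6 kidneys it was 6.97, 6.21 and 3.42% at 6 months, against 9.04, 2.04 and 2.08% at 3 months.

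**Figure D3:**
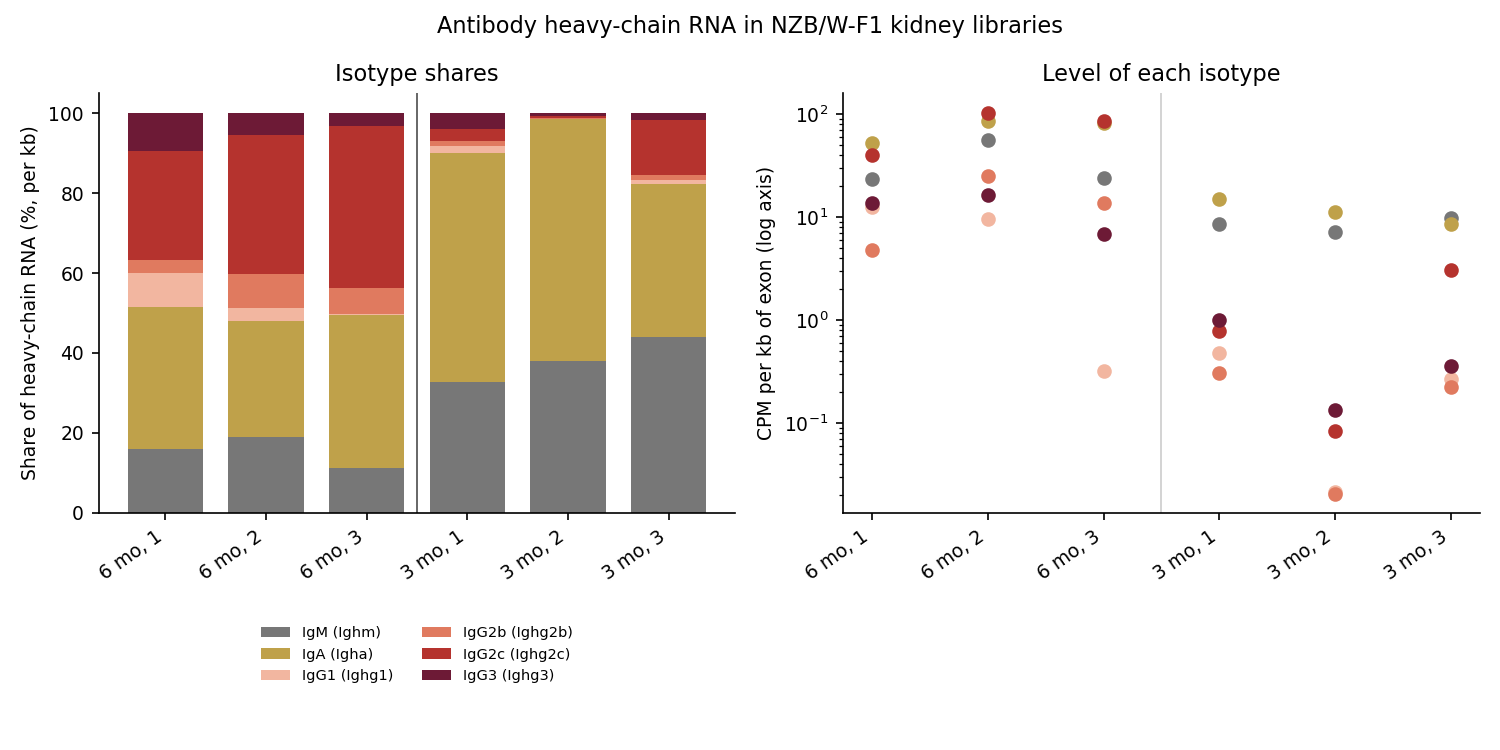
Left, share (%) of heavy-chain constant RNA per kb of exon taken by each isotype in each NZB/W-F1 kidney library. Right, the level of each isotype in CPM per kb of exon (log axis). IgG isotypes fill 48.5 to 52.0% of each 6-month bar and 1.39 to 17.8% of each 3-month bar.

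Light chains and the joining chain moved with the heavy chains. Igkc (chr6:70726435-70726966), the kappa constant gene, had 273, 553 and 404 CPM in 6-month kidneys, against 37.2, 20.5 and 28.3 CPM in 3-month kidneys, a log2 fold change of 3.8 (SE 0.35, adjusted p = 5.4e-05). Jchain (chromosome 5), which links IgA and IgM into polymers, had 68, 133 and 141 CPM in 6-month kidneys, against 12.4, 6.59 and 7.51 CPM in 3-month kidneys (log2 fold change 3.60, SE 0.36, adjusted p = 9.5e-05). In both genes the lowest 6-month kidney stood above the highest 3-month kidney. Of 27 tested variable segments 24 rose and 0 fell, with a median log2 fold change of 2.31 (1.73% of all genes rose). Their summed level was 74.9, 127 and 101 CPM in 6-month kidneys, against 4.82, 3.46 and 6.71 CPM in 3-month kidneys. Reads fell on all 27 segments in each 6-month kidney and on 22 in each 3-month kidney. A segment was tested only if it reached a minimum CPM in enough kidney libraries. With such low 3-month sums, most of the 27 segments could reach it only through other libraries, and had little room to fall. The numbers of segments that rose, fell or had reads thus depend partly on this filter, and do not describe segments that were not tested. Among the 24 kappa variable segments, 21 of which rose, the one with most reads was Igkv10-96 in all 3 nephritic kidneys, with 11.6 to 19.9% of kappa variable reads. The variable segments and constant genes are those of the mm10 reference, a C57BL/6 genome, so reads of the hybrids carry its gene names.

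Most tested B cell markers and some plasma cell markers rose. Of 11 B cell markers 6 were tested and 5 rose (median log2 fold change 1.67), and of 11 tested plasma cell markers 5 rose (median 0.62). Among all tested genes 1.73% rose. The B cell list summed to 17.6, 22.3 and 19.7 CPM in 6-month kidneys, against 4.75, 5.14 and 4.91 CPM in 3-month kidneys. Ms4a1, which encodes CD20 of mature B cells, had 1.27, 3.14 and 3.10 CPM in 6-month kidneys, against 0, 0.112 and 0.200 CPM in 3-month kidneys, all 3 of these 3-month values under the 3-read floor (log2 fold change 2.25, SE 0.38, adjusted p = 0.0062). Pou2af1, a B cell coactivator needed for antibody responses, had 1.86, 4.38 and 3.37 CPM in 6-month kidneys, against 0.297, 0.279 and 0.1 CPM in 3-month kidneys (log2 fold change 2.30, SE 0.29, adjusted p = 5.8e-04). Its partner factor Pou2f2 had 4.77, 6.95 and 5.71 CPM in 6-month kidneys, against 1.26, 0.838 and 1.10 CPM in 3-month kidneys (log2 fold change 2.00, SE 0.35, adjusted p = 0.0071). These 3 genes, Jchain and Mzb1 passed in every fit that left out 1 library. With the 6 libraries fitted alone, Mzb1 lost its call (adjusted p = 0.070). Mzb1, a chaperone of antibody assembly, shares 57% of its exon bases with Spata24, so its value is uncertain.

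Other B cell calls depended on single libraries. Cd22, an inhibitory receptor of B cells, had 5.89, 5.38 and 5.44 CPM in 6-month kidneys, against 2.15, 1.68 and 1.40 CPM in 3-month kidneys (log2 fold change 1.45, SE 0.27, adjusted p = 0.011). Cd79b, a signalling chain of the B cell receptor, had 5.37, 6.04 and 6.61 CPM in 6-month kidneys, against 1.41, 2.12 and 1.30 CPM in 3-month kidneys (log2 fold change 1.64, SE 0.36, adjusted p = 0.026). Neither gene's ages overlapped. Cd22 lost its call without 3-month replicate 2 or 3, and Cd79b without any 1 of the 6 libraries (adjusted p = 0.051 to 0.091 in these fits). With 1 library left out, 1 to 3 of the 5 B cell calls held.

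Macrophage and monocyte genes rose broadly. Of 16 tested members 9 rose and 0 fell (median log2 fold change 1.29), and 14 of the 16 lay wholly higher at 6 months. Over all genes 1.73% rose and 13.4% lay wholly higher. The list summed to 467, 537 and 388 CPM in 6-month kidneys, against 196 to 279 CPM in 3-month kidneys. Adgre1, the F4/80 antigen of resident kidney macrophages, had 13.3, 17.9 and 16.9 CPM in 6-month kidneys, against 6.90, 5.64 and 4.81 CPM in 3-month kidneys (log2 fold change 1.40, SE 0.20, adjusted p = 0.0020). Cd14, a coreceptor for bacterial lipopolysaccharide, had 55.2, 31.3 and 21.4 CPM in 6-month kidneys, against 11.9, 9.38 and 7.31 CPM in 3-month kidneys (log2 fold change 1.78, SE 0.29, adjusted p = 0.0052). Itgam, the integrin chain CD11b, had 3.58, 16.7 and 7.30 CPM in 6-month kidneys, against 0.890, 0.893 and 0.701 CPM in 3-month kidneys. Its log2 fold change was 2.63 (SE 0.37, adjusted p = 0.0018), and 69% of its exon bases overlap Gm49368, so the value is uncertain. Itgax, which encodes CD11c of dendritic cells and activated macrophages, had 4.85, 8.60 and 7.02 CPM in 6-month kidneys, against 1.71, 1.45 and 1.40 CPM in 3-month kidneys (log2 fold change 1.83, SE 0.28, adjusted p = 0.0031).

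More myeloid genes were among the 14 with the largest rises. Clec4a1, a C-type lectin of monocytes, had 6.78, 11.9 and 8.68 CPM in 6-month kidneys, against 1.41, 0.614 and 1.90 CPM in 3-month kidneys, a log2 fold change of 2.45. Ms4a7, a tetraspan protein of macrophages, had 7.16, 8.52 and 5.44 CPM in 6-month kidneys, against 1.85, 1.01 and 0.901 CPM in 3-month kidneys, a log2 fold change of 2.12. Siglece, an inhibitory sialic acid receptor of myeloid cells, had 5.37, 16.6 and 5.65 CPM in 6-month kidneys, against 2.15, 1.68 and 1.10 CPM in 3-month kidneys, a log2 fold change of 2.02. Replicate 2 was the highest 6-month kidney in these 3 genes. Adgre1, Cd14, Itgam, Itgax, Clec4a1, Ms4a7 and Siglece passed in all 6 fits that left out 1 library. With the 6 libraries fitted alone, Cd14, Itgam, Siglece and Wfdc17 lost their calls (adjusted p = 0.060 to 0.077). When 1 library was dropped, Wfdc17 (log2 fold change 1.94) lost its call only without 3-month replicate 2. Ms4a6d, at 1.84, lost it when replicate 2 or 3 of either age was dropped, with adjusted p = 0.058 to 0.12 for both genes in these fits. Across such fits 5 to 10 macrophage members passed.

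The dendritic, neutrophil and T cell lists held 1 called gene. Of 8 tested dendritic cell markers 1 rose, Itgax, and the median log2 fold change was 0.41 (1.73% of all genes rose). Of 13 neutrophil markers 3 were tested and 0 were called. Of 11 tested T and NK cell markers 0 were called, although 10 had a positive log2 fold change (median 0.84). Of these markers 7 lay wholly higher at 6 months, against 13.4% of all genes. The T and NK cell list summed to 37.6, 37.1 and 29.7 CPM in 6-month kidneys, against 20.8, 16.5 and 23.9 CPM in 3-month kidneys. Cd3d, a chain of the T cell receptor complex, had 1.94, 2.89 and 2.07 CPM in 6-month kidneys, against 1.26, 0.614 and 0.701 CPM in 3-month kidneys (adjusted p = 0.076).

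Some receptors for IgG and signalling adaptors rose. Of 11 tested members of the Fc receptor list 5 rose, against 1.73% of all genes (median log2 fold change 1.27). Fcgr4, the activating receptor that binds mouse IgG2 subclasses, had 6.04, 17.5 and 11.6 CPM in 6-month kidneys, against 2.75, 2.18 and 1.70 CPM in 3-month kidneys (log2 fold change 2.07, SE 0.38, adjusted p = 0.0098). Fcgr3, the low-affinity activating receptor, had 9.47, 17.2 and 9.36 CPM in 6-month kidneys, against 6.38, 3.63 and 3.60 CPM in 3-month kidneys (log2 fold change 1.30, SE 0.26, adjusted p = 0.014). Fcer1g, the signalling chain shared by these receptors, had 15.9, 42.3 and 21.1 CPM in 6-month kidneys, against 8.61, 5.64 and 9.41 CPM in 3-month kidneys (log2 fold change 1.59, SE 0.36, adjusted p = 0.032). These 3 genes were higher in every 6-month kidney than in any 3-month kidney, but 0 members of the list passed when 3-month replicate 3 was dropped or with the 6 libraries fitted alone, and 1 to 4 passed with another library left out. Fcgr2b, the inhibitory IgG receptor, had 24.9, 24.1 and 15.4 CPM in 6-month kidneys, against 17.7, 19.4 and 22.8 CPM in 3-month kidneys, with overlapping values (log2 fold change 0.08, adjusted p = 0.84). A test of activating against inhibitory receptors was not made.

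Complement and antigen presentation gave fewer calls. Of 23 tested complement genes 2 rose, against 1.73% of all genes (median log2 fold change 0.30). C3ar1, the receptor for the C3a fragment, had 8.87, 11 and 10.3 CPM in 6-month kidneys, against 3.19, 3.35 and 3.40 CPM in 3-month kidneys (log2 fold change 1.46, SE 0.24, adjusted p = 0.0048), and passed in all 6 fits that left out 1 library. C1qb, a chain of the C1q complex that binds antibody, had 62.7, 148 and 72.7 CPM in 6-month kidneys, against 42.7, 28.8 and 21.7 CPM in 3-month kidneys (log2 fold change 1.54, adjusted p = 0.024). C3, the central complement protein, overlapped widely, at 251, 153 and 48.6 CPM in 6-month kidneys against 557, 112 and 50.4 CPM in 3-month kidneys. Of 10 tested MHC class II genes 2 rose (median 0.76), H2-Aa with 246, 264 and 152 CPM in 6-month kidneys against 119, 97.1 and 103 CPM in 3-month kidneys, and the invariant chain protease Ctss. Of 17 MHC class I genes 0 were called (median 0.52), and 11 lay wholly higher at 6 months, against 13.4% of all genes. Fcer1g lost its call without any 1 library except 6-month replicate 1. C1qb, Ctss and Fcgr3 lost theirs when replicate 2 of either age or 3-month replicate 3 was dropped, H2-Aa without any but 6-month replicate 3, and Fcgr4 without 3-month replicate 3. In these fits the adjusted p was 0.0503 to 0.15.

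Some leukocyte-attracting signals rose. Of 19 tested chemokine ligands 4 rose, 18 had a positive log2 fold change and the median was 1.02 (1.73% of all genes rose). Ccl7, which attracts monocytes through CCR2, had 1.42, 3.56 and 1.86 CPM in 6-month kidneys, against 0.297, 0.223 and 0.1 CPM in 3-month kidneys (log2 fold change 1.91, SE 0.32, adjusted p = 0.0055). Ccl5, which attracts T cells and monocytes, had 8.65, 7.36 and 6.47 CPM in 6-month kidneys, against 1.63, 1.84 and 3.30 CPM in 3-month kidneys (log2 fold change 1.57, SE 0.37, adjusted p = 0.039). Cxcl10, an interferon-induced ligand of CXCR3, had 9.10, 9.18 and 9.91 CPM in 6-month kidneys, against 3.49, 4.80 and 4.61 CPM in 3-month kidneys (log2 fold change 1.05, SE 0.22, adjusted p = 0.021). None of the 3 ligands overlapped between the ages. Of the ligands, 1 passed when 6-month replicate 1 or 2, or 3-month replicate 1 or 2, was dropped, 2 passed when 3-month replicate 3 was dropped, and 0 passed with the 6 libraries fitted alone. Of 8 tested chemokine receptors 4 rose (median 0.99). Cx3cr1, the fractalkine receptor of resident macrophages and monocytes, had 15, 21.2 and 14.5 CPM in 6-month kidneys, against 5.12, 6.42 and 6.21 CPM in 3-month kidneys (log2 fold change 1.42, SE 0.26, adjusted p = 0.0088).

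Cytokine and innate sensing genes followed. Of 23 tested cytokines and receptors 5 rose, against 1.73% of all genes (median log2 fold change 0.88). Il1b, the inflammasome-processed cytokine interleukin 1 beta, had 8.95, 5.46 and 8.26 CPM in 6-month kidneys, against 0.890, 0.838 and 0.901 CPM in 3-month kidneys. All 3 nephritic animals were far above the narrow 3-month range (log2 fold change 2.52, SE 0.36, adjusted p = 0.0018). Of 14 tested toll-like and nucleic acid sensing genes 3 rose, and all 14 had a positive log2 fold change (median 0.90). Tlr7, the endosomal receptor for single-stranded RNA, had 2.83, 5.95 and 4.61 CPM in 6-month kidneys, against 1.56, 1.17 and 0.701 CPM in 3-month kidneys (log2 fold change 1.58, SE 0.32, adjusted p = 0.018). Il1b, Cx3cr1 and Ccl7 passed in all 6 fits that left out 1 library. Cxcl10 passed in none of them, Ccl5 only without 3-month replicate 3, and Tlr7 lost its call when replicate 2 of either age or 3-month replicate 3 was dropped. In those fits the adjusted p of these genes lay between 0.051 and 0.15.

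Type I interferon response genes had small positive differences, and nearly all missed the threshold. All 34 tested members had a positive log2 fold change (median 0.60), 20 did not overlap between the ages, and 1 was called (13.4% of all genes lay wholly higher and 1.73% rose). The called gene was Parp14, an ADP-ribosyl transferase, with 27.4, 31.4 and 27.3 CPM in 6-month kidneys, against 17.6, 18.3 and 15.5 CPM in 3-month kidneys (log2 fold change 0.73, SE 0.18, adjusted p = 0.046), and its call was lost without any 1 of the 6 libraries and under the replicate block. Ifit3, an antiviral protein of the IFIT family, had 32.3, 47.3 and 55.0 CPM in 6-month kidneys, against 23.1, 26.4 and 25.3 CPM in 3-month kidneys (log2 fold change 0.80, SE 0.24, adjusted p = 0.09). Ifi202b, a DNA-binding member of the p200 family, had 6.49, 11.8 and 6.47 CPM in 6-month kidneys, against 3.64, 2.85 and 2.5 CPM in 3-month kidneys (adjusted p = 0.074). Of 17 tested GTPases induced by interferon gamma 0 were called (median 0.29). Replicate 2 was the highest 6-month kidney for 30 of the 34 type I genes.

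The promoters of Cxcl10 and Ifit3 are shown, as those of a called chemokine and of a type I interferon gene, because both hold an interferon-type motif. The 250 bases before the gene start were read from RefSeq (GRCm38.p6), 5′ to 3′ on the gene's strand, and capitals mark GAAANNGAA or its reverse complement. Cxcl10 lies at chr5:92348890-92349139 on the minus strand and Ifit3 at chr19:34583279-34583528 on the plus strand.
Cxcl10: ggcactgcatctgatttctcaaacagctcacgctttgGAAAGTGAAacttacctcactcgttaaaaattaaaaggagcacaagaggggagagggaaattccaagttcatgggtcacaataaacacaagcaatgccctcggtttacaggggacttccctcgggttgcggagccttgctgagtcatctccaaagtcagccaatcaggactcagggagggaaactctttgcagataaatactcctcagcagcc
Ifit3: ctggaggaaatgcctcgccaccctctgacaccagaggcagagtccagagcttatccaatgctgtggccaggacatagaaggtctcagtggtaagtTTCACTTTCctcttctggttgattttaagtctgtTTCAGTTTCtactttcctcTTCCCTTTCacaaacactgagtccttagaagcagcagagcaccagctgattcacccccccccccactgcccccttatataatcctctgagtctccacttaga
The Cxcl10 window holds 1 match and the Ifit3 window 3. Of 14373 tested genes 10893 had such a window, and 6.44% of these held the motif on either strand. It was present in 10 of 24 type I interferon genes with a window, in 10 of 12 interferon gamma GTPases and in 3 of 13 chemokine ligands. It was present in 19 of 165 genes that rose (11.5%) and in 3 of 43 that fell (6.98%). These matches are descriptions of the sequence.

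Some tubule injury genes rose, unevenly among animals. Of 30 tested members of the tubule injury and repair list 4 rose and 28 had a positive log2 fold change (median 0.89). Of the list 15 members lay wholly higher at 6 months. Over all genes 1.73% rose and 13.4% lay wholly higher. Lcn2, the lipocalin NGAL released by injured tubules, had 42.5, 31.1 and 9.71 CPM in 6-month kidneys, against 2.37, 1.90 and 3.10 CPM in 3-month kidneys (log2 fold change 3.04, SE 0.57, adjusted p = 0.011). Vcam1, an adhesion molecule for leukocytes, had 50.6, 29.0 and 23.8 CPM in 6-month kidneys, against 14.5, 11 and 9.41 CPM in 3-month kidneys (log2 fold change 1.47, SE 0.27, adjusted p = 0.0088). Spp1, which encodes osteopontin, had 5399, 3958 and 1357 CPM in 6-month kidneys, against 898, 1018 and 1292 CPM in 3-month kidneys, with the lowest nephritic kidney just above the highest 3-month kidney (log2 fold change 1.54, SE 0.34, adjusted p = 0.028). Havcr1, which encodes the injury marker KIM-1, had 176, 53.3 and 41.5 CPM in 6-month kidneys, against 57, 56.1 and 35.6 CPM in 3-month kidneys, and was high in replicate 1 only (adjusted p = 0.49). Vcam1 passed in all 6 fits that left out 1 library, but not with the 6 libraries fitted alone (adjusted p = 0.071). Dropping 6-month replicate 1 or 3-month replicate 2 ended the call of Lcn2, and Spp1 lost its call without any 1 library except 6-month replicate 3, with adjusted p = 0.054 to 0.12. The 8 urothelial markers, of which 0 were called, all lay wholly higher at 6 months (median 1.15), and their part in the injury genes was not tested.

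Clca3a1, a regulator of chloride conductance, had 16, 45.2 and 13.7 CPM in 6-month kidneys, against 6.75, 4.36 and 4 CPM in 3-month kidneys (log2 fold change 2.03, SE 0.48, adjusted p = 0.040), and its call held only when 6-month replicate 3 was the library left out (adjusted p = 0.061 to 0.14 in the others). Ctsc, a protease that activates granule enzymes of leukocytes, had 48.8, 69.4 and 42.7 CPM in 6-month kidneys, against 20.9, 22.6 and 24.9 CPM in 3-month kidneys (log2 fold change 1.19, SE 0.18, adjusted p = 0.0028), and passed in all 6 fits that left out 1 library. Of 21 tested proteases and inhibitors 2 rose, of 9 acute phase genes 1, and of 26 extracellular matrix genes 0 (medians 0.33, 0.30 and 0.20). The share of all genes that rose was 1.73%. Col1a1, the main fibrillar collagen chain, had 44.9, 120.1 and 15.8 CPM in 6-month kidneys, against 49.3, 59.0 and 25.9 CPM in 3-month kidneys. Of 13 immediate early genes 0 were called, although all 13 were positive (median 0.82) and 8 lay wholly higher, against 13.4% of all genes. All 12 podocyte markers had a positive log2 fold change (median 0.41), and 1 of them rose. It was Ptpro, a phosphatase of podocyte foot processes, with 35.3, 26.3 and 19.3 CPM in 6-month kidneys against 9.72, 14.1 and 18.1 CPM in 3-month kidneys (log2 fold change 0.92, SE 0.21, adjusted p = 0.032). Ptpro lost its call when replicate 1 or 2 of either age was dropped (adjusted p = 0.076 to 0.14).

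Genes of the cell cycle were high in 2 of the 3 nephritic kidneys. Of 27 tested members 6 rose and 26 had a positive log2 fold change (median 1.16). At 6 months 15 members lay wholly higher, while over all genes 1.73% rose and 13.4% lay wholly higher. Mki67, the proliferation antigen Ki-67, had 24.7, 34.2 and 6.75 CPM in 6-month kidneys, against 4.90, 4.19 and 4.31 CPM in 3-month kidneys (log2 fold change 1.90, SE 0.45, adjusted p = 0.037). Top2a, the topoisomerase of dividing cells, had 14.9, 20.5 and 4.75 CPM in 6-month kidneys, against 3.93, 3.24 and 1.90 CPM in 3-month kidneys (log2 fold change 1.81, SE 0.40, adjusted p = 0.028). Kif11, a motor of the mitotic spindle, had 4.03, 3.97 and 1.51 CPM in 6-month kidneys, against 1.26, 0.503 and 0.801 CPM in 3-month kidneys (adjusted p = 0.020). In each of the 3 genes replicate 3 was the lowest nephritic kidney and still above every 3-month kidney. Relative to the 3-month mean, the median member stood at log2 differences of 1.57, 1.76 and 0.25 in 6-month replicates 1, 2 and 3. The number of calls changed with single libraries of either age, and the part of this split in it was not tested. Without 6-month replicate 3, 20 members passed. Dropping replicate 1 or 2 at 6 months left 0, as did dropping replicate 2 or 3 at 3 months, and dropping 3-month replicate 1 left 3. In fits that lost them, Mki67, Top2a and Kif11 had an adjusted p of 0.064 to 0.14. The cells in which these genes were read cannot be told apart in bulk RNA.

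Promoters of 4 called cell cycle genes are shown because a CCAAT box, bound by NF-Y, is known to be frequent in genes of this class. They are the 250 bases before the gene start (RefSeq, GRCm38.p6, gene strand, 5′ to 3′), with CCAAT or its reverse complement in capitals: Top2a at chr11:99024190-99024439 (minus), Mki67 at chr7:135716380-135716629 (minus), Kif11 at chr19:37376132-37376381 (plus) and Rrm2, a ribonucleotide reductase subunit, at chr12:24708004-24708253 (plus).
Top2a: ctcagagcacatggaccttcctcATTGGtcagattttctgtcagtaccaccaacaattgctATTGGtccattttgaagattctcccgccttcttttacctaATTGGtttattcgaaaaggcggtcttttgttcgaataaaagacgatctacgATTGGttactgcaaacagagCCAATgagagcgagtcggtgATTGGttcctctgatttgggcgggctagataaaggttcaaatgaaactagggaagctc
Mki67: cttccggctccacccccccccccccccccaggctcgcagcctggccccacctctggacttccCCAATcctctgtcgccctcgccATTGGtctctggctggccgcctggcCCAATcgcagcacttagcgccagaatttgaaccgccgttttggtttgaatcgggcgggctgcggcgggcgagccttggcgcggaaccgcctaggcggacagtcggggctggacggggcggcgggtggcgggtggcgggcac
Kif11: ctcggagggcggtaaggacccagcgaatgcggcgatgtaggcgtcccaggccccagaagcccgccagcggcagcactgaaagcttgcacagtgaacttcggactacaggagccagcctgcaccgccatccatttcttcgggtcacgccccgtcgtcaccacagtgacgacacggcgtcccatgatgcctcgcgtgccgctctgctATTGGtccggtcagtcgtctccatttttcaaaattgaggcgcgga
Rrm2: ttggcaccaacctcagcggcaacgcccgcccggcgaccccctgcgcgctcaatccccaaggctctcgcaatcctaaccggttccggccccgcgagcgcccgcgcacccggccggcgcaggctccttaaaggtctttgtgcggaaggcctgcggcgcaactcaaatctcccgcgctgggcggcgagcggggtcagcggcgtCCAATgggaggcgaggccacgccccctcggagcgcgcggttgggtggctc
Top2a holds 6 matches, Mki67 holds 3, and Kif11 and Rrm2 hold 1 each. Among tested genes with a window, 35.9% held the motif on either strand, as did 20 of 23 cell cycle genes, 63 of 165 genes that rose (38.2%) and 16 of 43 genes that fell (37.2%). The share among all genes that rose was thus close to that of all genes.

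Of the 48 gene lists 1 held a gene that fell, Vegfa. The largest falls among the 53 at 5 CPM or more included Proz, a cofactor that inhibits coagulation factor X, with 2.98, 4.71 and 3.92 CPM in 6-month kidneys against 8.38, 12.6 and 15.2 CPM in 3-month kidneys (log2 fold change -1.50, SE 0.29, adjusted p = 0.012). Clec2h, a C-type lectin, had 1.71, 8.02 and 7.92 CPM in 6-month kidneys, against 13.8, 18 and 35.6 CPM in 3-month kidneys (log2 fold change -1.97, SE 0.43, adjusted p = 0.027). Frs3, an adaptor of fibroblast growth factor receptors, had 7.46, 11 and 7.57 CPM in 6-month kidneys, against 17.6, 18.9 and 16.3 CPM in 3-month kidneys (log2 fold change -1.0, SE 0.17, adjusted p = 0.0064). Frs3 was the named lower gene that passed in all 6 fits that left out 1 library. Susd2, a sushi domain protein, was the most abundant of the 14 named, with 106, 156 and 130.1 CPM in 6-month kidneys against 224, 304 and 283 CPM in 3-month kidneys (log2 fold change -1.05, SE 0.25, adjusted p = 0.039). Gys2, the liver isoform of glycogen synthase, had 3.65, 8.02 and 6.33 CPM in 6-month kidneys, against 10.7, 15.5 and 15.5 CPM in 3-month kidneys (log2 fold change -1.19, SE 0.29, adjusted p = 0.046). The others were Kcne1l, Slc26a10, Gnas, Hmcn2, Tle2, Arvcf, Snap91, Pcsk5 and Adssl1, with log2 fold changes between -1.33 and -0.99. Of these, Hmcn2 and Pcsk5 lost their calls in all 6 fits that left out 1 library, with edgeR and under the replicate block. Gnas, Tle2, Arvcf and Snap91 lost theirs in 5 of the 6 fits, and Kcne1l, Slc26a10 and Adssl1 in 4 (adjusted p up to 0.17). Arvcf, Gys2 and Susd2 also lost their calls with edgeR, and Snap91 under the replicate block. Vegfa, the growth factor that podocytes and tubules supply to the capillaries, had 102, 94.4 and 92.8 CPM in 6-month kidneys, against 137, 158 and 162 CPM in 3-month kidneys (log2 fold change -0.65, SE 0.14, adjusted p = 0.023). Proz and Clec2h lost their calls when 6-month replicate 1 was dropped, or 3-month replicate 2 or 3, Vegfa without any 1 library except 3-month replicate 1, and Susd2 and Gys2 without any except 6-month replicate 2 (adjusted p = 0.052 to 0.17). With the spread taken from the 6 libraries alone, none of these lower genes, Frs3 included, passed (adjusted p = 0.06 to 0.14).

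**Figure D4:**
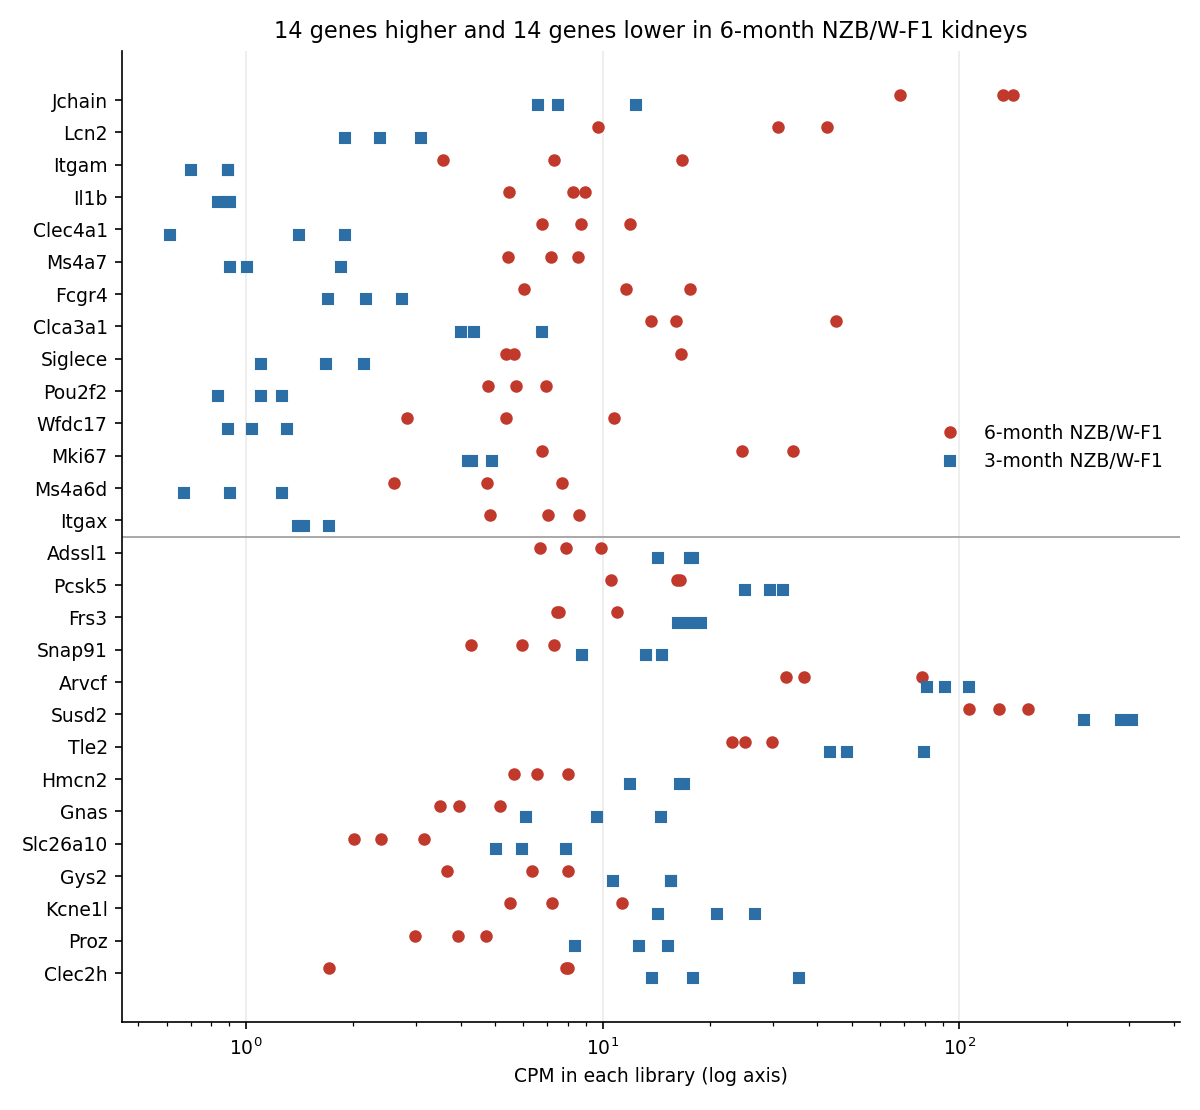
CPM in each library (x axis, log scale) of the 14 named genes with the largest rises and the 14 with the largest falls (rows), with 6-month NZB/W-F1 kidneys as circles and 3-month kidneys as squares. In every row the circles and squares do not overlap. Jchain has the highest level among the risen genes at 68 to 141 CPM in 6-month kidneys.

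Transport genes of the proximal tubule leaned lower without passing the test. Of 24 tested proximal tubule markers 21 had a negative log2 fold change, 7 lay wholly lower and 0 were called (median -0.57, where 12.7% of all genes lay wholly lower). The list summed to 35382, 30882 and 32844 CPM in 6-month kidneys, against 40974, 38799 and 39786 CPM in 3-month kidneys. Of 35 renal solute carriers 33 were negative, 10 lay wholly lower and 0 were called (median -0.51). The phosphate transporter Slc34a1 had a log2 fold change of -1.12 (SE 0.34, adjusted p = 0.098), and its 6-month and 3-month values overlapped. Slc5a2, the glucose transporter SGLT2, had 32.6, 78.0 and 47.5 CPM in 6-month kidneys, against 62.6, 134 and 195 CPM in 3-month kidneys (log2 fold change -1.25, SE 0.41, adjusted p = 0.12). Ggt1, a brush border peptidase, had 615, 585 and 579 CPM in 6-month kidneys, against 896, 973 and 809 CPM in 3-month kidneys (adjusted p = 0.13). Of 17 cholesterol synthesis genes 15 were negative, 7 lay wholly lower and 0 were called (median -0.50). Dhcr7, the last step of cholesterol synthesis, had 17.5, 17.5 and 13 CPM in 6-month kidneys, against 64.8, 28.3 and 20.0 CPM in 3-month kidneys. The 64.8 CPM was in the library with adrenal RNA. Relative to the 3-month mean, the median cholesterol gene stood at -0.0041, 0.17 and -0.18 on the log2 scale in 3-month replicates 1, 2 and 3. The part of adrenal RNA in these genes was not tested. Adipocyte markers, of which 0 of 9 were called, had a median of -1.32. Without 3-month replicate 1, 1 solute carrier passed and 0 proximal tubule markers did.

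Metabolic lists gave few calls, where 1.73% of all genes rose and 0.369% fell. Of 25 fatty acid oxidation genes 2 rose, Acot2, a mitochondrial thioesterase, with 48.0, 32.3 and 42.1 CPM in 6-month kidneys against 24.1, 26.2 and 25.7 CPM in 3-month kidneys, and Cyp4a12b, which shares 63% of its 31-base words with another gene and is therefore uncertain. Of 25 cytochrome P450 and conjugation genes 1 rose, the sulfotransferase Sult1d1, with 402, 385 and 604 CPM in 6-month kidneys against 219, 207 and 294 CPM in 3-month kidneys (log2 fold change 0.93, SE 0.20, adjusted p = 0.023). Acot2 lost its call without any 1 library except 6-month replicate 2, and Sult1d1 when 6-month replicate 3 was dropped, or 3-month replicate 1 or 2 (adjusted p = 0.073 to 0.17). Acot2 also lost it with median-of-ratios scaling, with a pseudocount of 0.1 and under the replicate block. With the 6 libraries fitted alone, Acot2, Cyp4a12b and Sult1d1 all lost their calls. Vegfa was the single call among 17 glycolysis and hypoxia genes. Heat shock, circadian clock, p53 target and mitochondrially encoded lists had 0 calls, as did markers of thick ascending limb, distal tubule, collecting duct, intercalated cells, endothelium, mesangium, fibroblasts and mast cells.

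The 3 nephritic kidneys were not alike. Of the 248 genes that rose, 54 were highest in 6-month replicate 1, 155 in replicate 2 and 39 in replicate 3. Among the 14072 uncalled genes these numbers were 3844, 5490 and 4738. Relative to the 3-month mean, the median risen gene stood at log2 differences of 1.26, 1.75 and 1.16 in replicates 1, 2 and 3. Macrophage markers were highest in replicate 2 for 13 of 16, and extracellular matrix genes for 21 of 26. Podocyte markers were highest in replicate 1 for 11 of 12. Tubule injury genes had medians of 0.90, 1.22 and 0.36, and type I interferon genes of 0.27, 1.02 and 0.59. Replicate 3 was thus near the 3-month kidneys for cell cycle and injury genes, yet it had a 50.4% IgG share and high Jchain. Mitochondrially encoded genes were also highest in replicate 2, where mt-Co1 had 35543 CPM against 16977 and 21571 CPM in replicates 1 and 3, and their part in these differences was not tested.

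The same ages in C57BL/6 kidneys gave 1 called gene of 14373 (0.00696%), the kappa segment Igkv10-96, with a log2 fold change of 2.18 (adjusted p = 0.035), and 2359 genes at an unadjusted p under 0.05. Igkv10-96 was also higher in NZB/W-F1 kidneys, by 4.02 on the log2 scale. In limma no gene passed for the strain by age interaction, which tests whether the change differs between strains (0%). There 3719 genes had an unadjusted p under 0.05, the smallest adjusted p was 0.052, and edgeR called 0 (3584 unadjusted). The numbers depended on C57BL/6 3-month replicate 3: without it 1780 genes passed in C57BL/6 and 2839 in the interaction. Among the NZB/W-F1 libraries, dropping 6-month replicate 1, 2 or 3 gave 7, 1 and 47 genes in the interaction, and dropping 3-month replicate 1 gave 1.

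The values of both strains side by side are as follows. Antibody genes were positive in both, with median log2 fold changes for the heavy-chain list of 3.79 in NZB/W-F1 and 1.26 in C57BL/6. Ighg2b differed by 5.12 in NZB/W-F1 and 1.38 in C57BL/6 (interaction adjusted p = 0.052). Adgre1 was positive in both strains, at 1.40 and 1.14 (interaction adjusted p = 0.58). Lcn2 was 3.04 in NZB/W-F1 and -1.07 in C57BL/6 (interaction adjusted p = 0.059). List medians were 1.29 in NZB/W-F1 and 0.28 in C57BL/6 for macrophages, 0.60 and -0.11 for type I interferon genes, 0.89 and -0.27 for tubule injury, 1.16 and 0.02 for the cell cycle, and -0.57 and 0.30 for the proximal tubule. The urothelial list had medians of 1.15 in NZB/W-F1 and -1.12 in C57BL/6. The 3 C57BL/6 kidneys of 3 months were not alike. In replicates 1, 2 and 3 their urothelial markers summed to 379, 356 and 143 CPM. Umod had 224, 298 and 1536 CPM there, and Aqp2 of the collecting duct 722, 939 and 230 CPM. The part of this difference in the C57BL/6 values was not tested. Since the C57BL/6 libraries carry the same split of sample numbers by age, the values of both strains come from libraries divided in the same way.

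**Figure D5:**
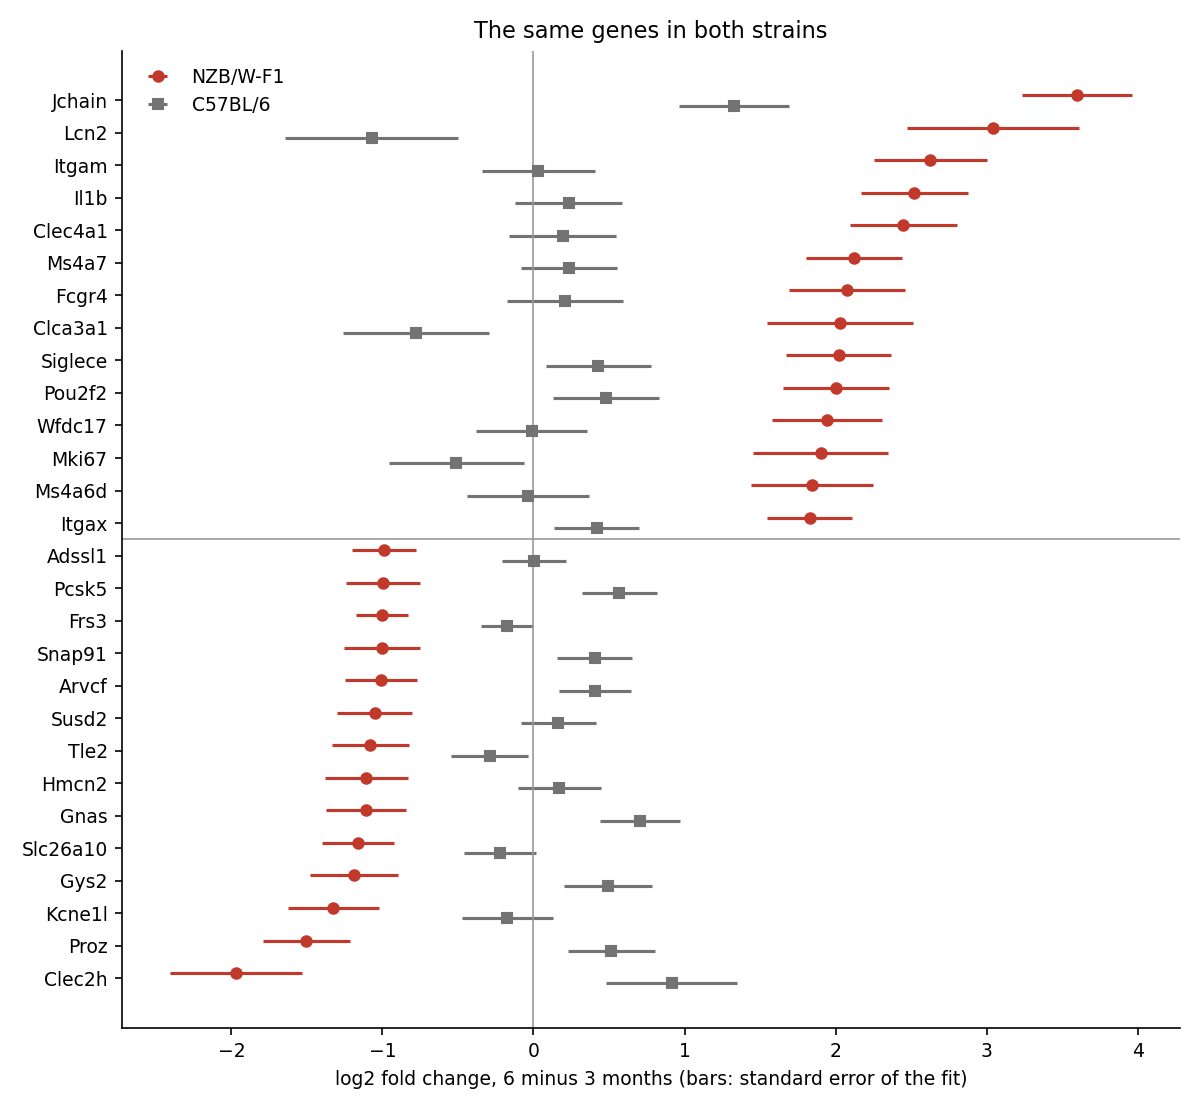
Log2 fold change, 6 minus 3 months (x axis), of the 28 named genes (rows) in NZB/W-F1 (circles) and C57BL/6 (squares), with bars for the standard error. The NZB/W-F1 values chose the genes. All 28 C57BL/6 values lie nearer 0, with Lcn2 at -1.07 and Jchain at 1.33.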

How the data were processed

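RNA-seq was measured in total kidney of NZB/W-F1 and C57BL/6 females, 18 kidney libraries in 6 groups by strain and age. Per the labels' protocols, RNA was taken with TRIzol and libraries were made with the TruSeq RNA Sample Prep Kit v2, with no strand setting stated. Per the submitters' processing notes the authors used STAR 2.6, HTSeq and edgeR with mm10. The authors' deposited table holds a signal: CPM on scaled library sizes, per the labels CPM, with column totals whose geometric mean is 1e+06. CPM had been planned for and the same test was kept. Whole reads were recovered for 100% of values (tolerance 0.01), and 3 counter rows holding 20.8 to 29.9% of reads were left out. Floors cover counting error only, while each SE is from the limma fit and covers the spread between libraries.

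The fit was limma 3.58.1 (R 4.3.3), trended, on log2(CPM + 0.5), over all 18 libraries with a mean for each group, for 14373 of 14453 genes with CPM of at least 1 in at least 3 libraries. Fold changes on this scale understate changes of low genes. Tests were two-sided with Benjamini-Hochberg adjustment over all 14373 genes and a threshold of 0.05. Every adjusted p is from this fit unless edgeR 4.0.16 (quasi-likelihood, recovered reads) is named. Median-of-ratios scaling used DESeq2 1.42.0. Isotype shares used scipy 1.17.1. The libraries are separate animals, and no replicate pair agreed within sampling noise.

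Genes were named by a rule: adjusted p under 0.05, a mean of at least 5 CPM at 1 age and no overlap, then the 14 largest changes in each direction, passing over predicted genes and antibody segments, plus up to 4 members with the smallest p from each of 48 lists (21 of cell type markers, 27 of pathways). Col1a1, C3, Fcgr2b, Havcr1, Ighg1, Igha, Igkv10-96, mt-Co1 and the tissue markers were added after their values were seen. Members and lists were chosen with earlier results of these data known. Exon overlap and shared 31-base words were taken from GENCODE vM21 (GRCm38, 14448 genes matched). A gene with over 50% of either is called uncertain. Promoters are from RefSeq. A few genes that could be named are not reported here. Leaving out the adrenal-bearing libraries was added after the data were seen.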

Additional observations from a re-analysis of the deposited data

Results flagged for a closer look

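A 1-month NZB/W-F1 kidney library, replicate 1, which enters no comparison here but shares in the estimate of the spread, carried RNA of other organs. Its adrenal cortex markers summed to 2643 CPM, against 4.01 and 3.59 CPM in the other 1-month NZB/W-F1 kidneys. Alb, the serum albumin gene of the liver, had 5556 CPM in it, against 0.756 and 1.95 CPM in the other 1-month NZB/W-F1 kidneys.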

How the results depend on the processing

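With median-of-ratios scaling, no filter, a pseudocount of 0.1 and edgeR, the NZB/W-F1 comparison gave 297, 305, 283 and 296 genes, against 301. Fitting the compared libraries alone gave 78 (73 higher), and leaving out 1 library gave 108 to 290. The share of higher genes, 82.4% of 301, was 93.6% with the compared libraries alone and 72.0 to 95.9% among the fits without 1 library. Without both libraries that carried adrenal RNA (NZB/W-F1 3-month replicate 1 and 1-month replicate 1) 264 passed, 192 of them among the 301. In C57BL/6 the single call became 0 with edgeR, with the compared libraries alone, with a pseudocount of 0.1 and without both adrenal-bearing libraries, and 0 to 1780 without 1 library. The interaction count of 0 became 174 without both adrenal-bearing libraries and 0 to 2839 without 1 library. The cause was not tested.

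With the replicate number as a block, 291 genes passed in NZB/W-F1. Same-numbered libraries of the ages correlated at -0.11, -0.28 and 0.02 in their deviations from the group means, so the numbers do not pair the animals.

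Of 80 called genes with per-gene alternatives, 18 kept the call in all 13 alternatives and 0 changed direction. Uncalled genes could change sign, as Hsd3b1 did with log2 fold changes between -9.50 and 0.10. Fitting the compared libraries alone ended 55 of the 80 calls, and leaving out 1 library ended 21 to 47. Depth limits genes near 3 reads, such as Ms4a1 and Ighg2b at 3 months.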
